A study of Homo sapiens with 4 samples.

Results

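The 32 genes described here encode the enzymes that build cholesterol and fatty acids and the proteins that control them. They were taken by symbol from a table of gene counts with 60662 entries, and every one of the 32 symbols had 1 entry. RNA was sequenced from U937, an established human myeloid cell line derived from a histiocytic lymphoma. Cells of the PMA group were plated on dishes with PMA (phorbol myristate acetate) at 10 nM for 72 h. PMA mimics diacylglycerol and so turns on protein kinase C, and the labels name differentiation to macrophage-like cells as the aim. Untreated cells had no PMA over the same 72 h. Both groups grew in RPMI1640 with fetal bovine serum, which carries cholesterol and fatty acids into the culture. Each group had 2 libraries, 1 from lot 1 and 1 from lot 2 of the cells, so all values come from a single line.

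Animal cells make cholesterol from acetyl-CoA through mevalonate, farnesyl diphosphate, squalene and lanosterol, and they make fatty acids from the same acetyl-CoA through malonyl-CoA. The transcription factors SREBP-1 and SREBP-2, encoded by SREBF1 and SREBF2, switch on most of these genes. When sterols are plentiful the INSIG proteins hold SREBP and its escort SCAP in the endoplasmic reticulum, and when sterols run low the complex moves to the Golgi, where SREBP is cut free. Macrophages are known for taking up large amounts of lipid, and the balance between uptake, synthesis and efflux sets how much sterol they hold.

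Total counts were 35739833 (lot 1) and 50822971 (lot 2) with PMA, against 54915928 (lot 1) and 41308603 (lot 2) without it. Levels are normalised CPM, the count scaled to library size with TMM factors, and fold changes are log2 of PMA over untreated with their standard error. All 9 myeloid markers checked were tested, of which 5 rose (ITGAX, ITGAM, CD14, CD68 and CD209), against 4.29% of all tested genes. PTPRC, CD33, SPI1 and CD4 did not pass the edgeR test described below. The summed level of the 9 was 4536 and 4759 CPM with PMA, against 737 and 671 CPM without it. ITGAX alone was at 1907 and 2703 CPM with PMA and at 12.4 and 12.6 CPM without it. Markers of liver and fat cells were at 0 in all 4 libraries for 7 of 7 genes, those of fibroblasts and epithelium for 6 of 7, and those of T and B cells for 4 of 6. The highest of them was the B cell gene CD79A, at 2.51 and 6.87 CPM with PMA and 1.68 and 2.41 CPM without it. The labels do not state that separate cultures gave the lots, so a p-value here weighs differences against library spread that may be technical. In bulk RNA, fewer cells of a kind and less RNA per cell cannot be told apart.

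Of the sterol and fatty acid genes 1 passed the test for a difference with PMA. Of the 32 genes, 30 were abundant enough to be tested, and HSD17B7 and ELOVL6 were listed at 0 in all 4 libraries. For both, the listed 0 can be a failed estimate. In edgeR (quasi-likelihood test, p-values adjusted by Benjamini-Hochberg over 16451 tested genes) 1 member rose and 0 fell. The riser was SQLE, the squalene epoxidase. Across all tested genes 4.29% rose and 2.02% fell, or 6.30% in either direction, so 1 of 30 is no higher than the rate over the genome. At an unadjusted p under 0.05 there were 2 members higher and 1 lower, against 27.0% of all tested genes in either direction, and DESeq2 called 2 members higher and 1 lower, against 12.9% and 10.2% of tested genes (23.2% in either direction). The groups were separate, with both PMA libraries on the same side of both untreated libraries, in 7 of the 30 members (4 with PMA above, 3 with PMA below), against 60.4% of all tested genes (31.0% above, 29.4% below). The median log2 fold change of the 30 members was 0.20, against 0.00 over all tested genes.

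**Figure D1:**
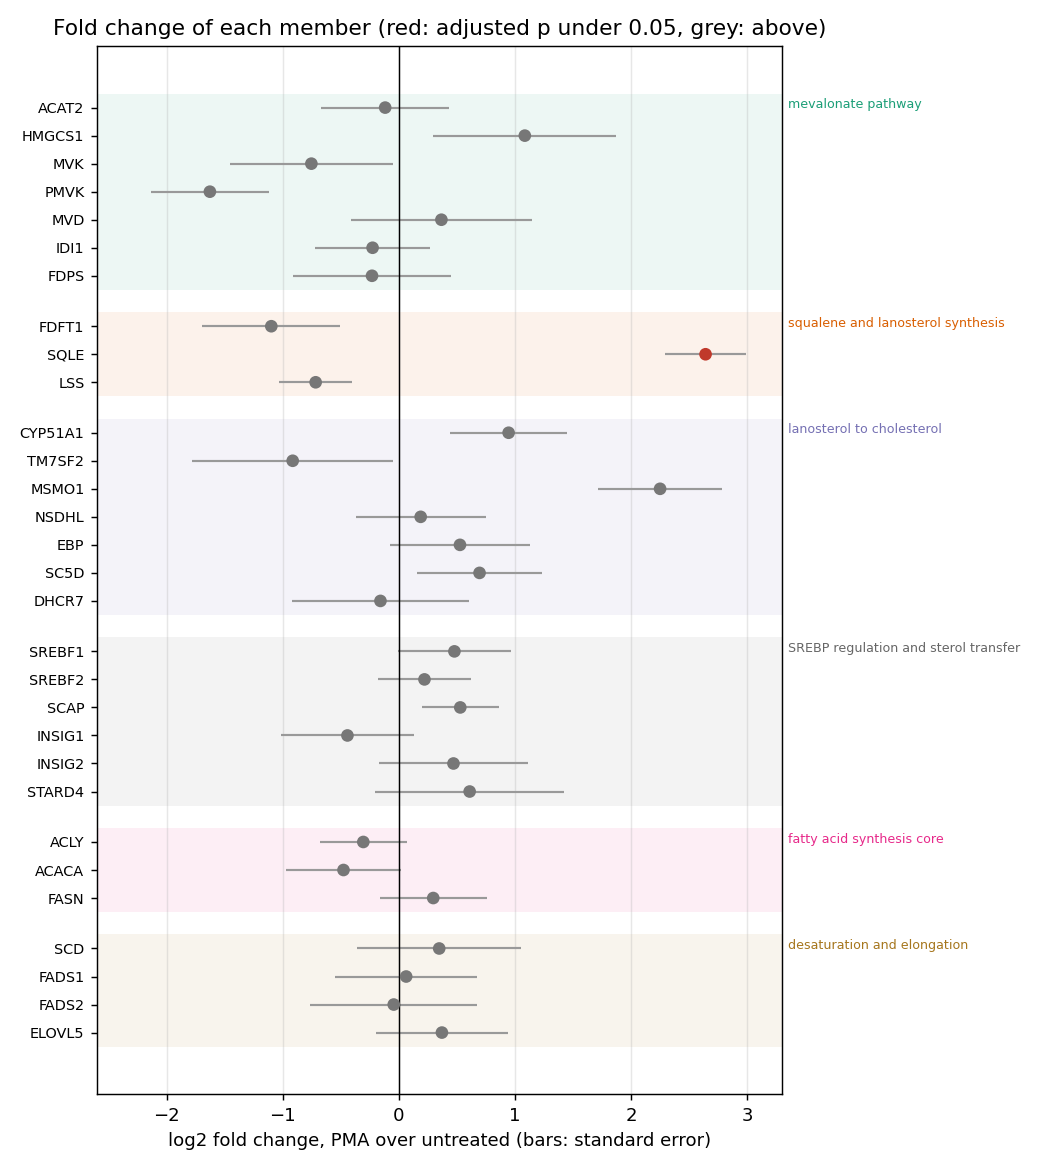
Log2 fold change of PMA over untreated cells for the 30 tested members (x axis) by pathway step (shaded bands), with bars for the standard error and n = 2 libraries per group. SQLE, at 2.64, is the single red point past an adjusted p of 0.05, MSMO1 lies next to it at 2.25, and the lowest point is PMVK at −1.63.

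The lots differed in which way the pathway went. In lot 2, 24 of the 30 members were higher in the PMA library than in the untreated library, with a median log2 ratio of 0.61. In lot 1, 10 of 30 were higher, with a median log2 ratio of −0.56. Over all tested genes with counts in both libraries of a lot, 51.7% were higher with PMA in lot 2 and 48.7% in lot 1. A total of 14 members were higher with PMA in lot 2 and lower with PMA in lot 1, and 0 showed the reverse pattern, while 14.5% of the tested genes with counts in all 4 libraries showed the first. The ratio was greater in lot 2 than in lot 1 for 28 of 30 members, against 54.1% of those genes.

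**Figure D2:**
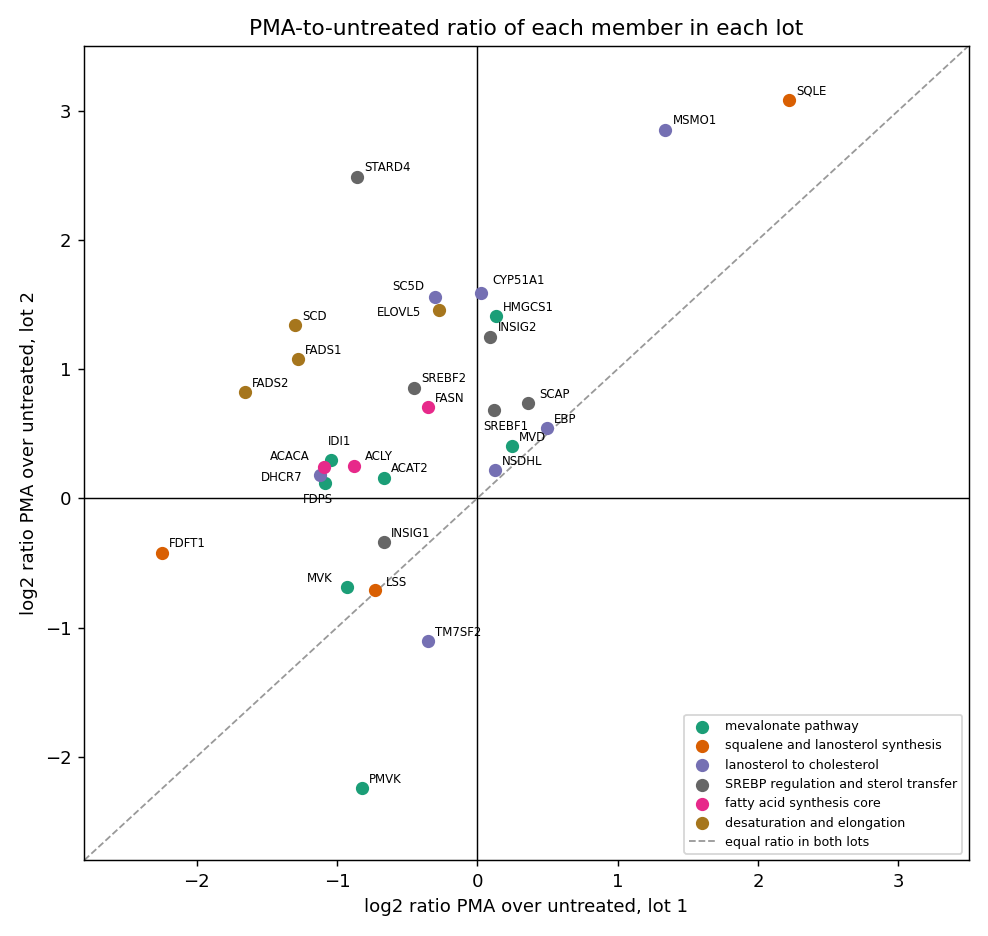
Log2 ratio of PMA over untreated cells in lot 1 (x axis) and in lot 2 (y axis) for each of the 30 tested members, coloured by pathway step, with 1 library per group and lot. The upper left holds 14 members, and 28 points lie above the dashed line of equal ratios, with SQLE and MSMO1 far to the upper right.

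The summed level of the 32 genes was 4928 CPM in the PMA library of lot 1 and 12172 CPM in the PMA library of lot 2, against 7078 and 7089 CPM in the untreated libraries of lots 1 and 2. The untreated libraries had nearly the same total, and the PMA libraries lay on either side of it. The untreated totals held opposite differences between lots. In the untreated libraries of lots 1 and 2 the sterol enzymes summed to 2389 and 3317 CPM. The fatty acid enzymes summed to 3662 and 2531 CPM in the same libraries. Without SCD, the most abundant member, the sums were 4187 and 8989 CPM with PMA and 5254 and 5830 CPM without it. Between the PMA libraries 27 of 30 members were higher in lot 2, by a median of 1.26 on the log2 scale, and 21 were at least 2-fold higher. Between the untreated libraries 14 of 30 were higher in lot 2, with a median log2 difference of −0.08 and a range of −2.07 to 1.98. The untreated median was 0.93 for the mevalonate genes and −0.64 for the desaturation and elongation genes. With 1 library per lot and group, neither the gap between the PMA libraries nor the difference of the ratios between lots has a replicate check. The PMA library of lot 1 was the shallowest, and the mitochondrial share of counts was 2.81% and 5.99% with PMA and 3.66% and 8.58% without it in lots 1 and 2. The part of depth and of this share in the gap was not tested.

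**Figure D3:**
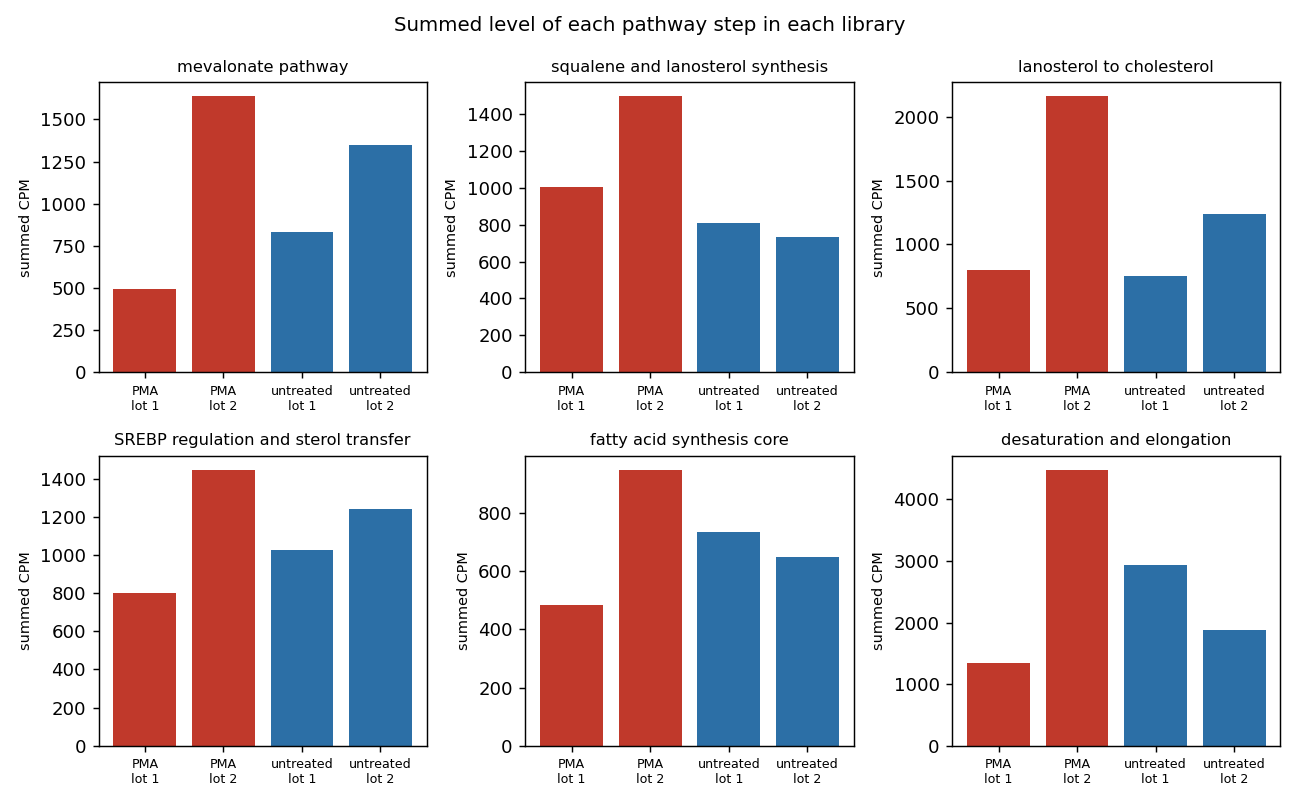
Summed CPM of the members of each pathway step (y axis, from 0) in each library, with PMA libraries in red and untreated libraries in blue. In all 6 panels the PMA library of lot 2 is the highest bar, while the PMA library of lot 1 is the lowest in 4 of the panels, and it lies above both untreated libraries for squalene and lanosterol synthesis.

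The promoters of 5 members are shown because they stand for the patterns found: the highest fold change among members in the promoter table (MSMO1), the lowest fold change (PMVK), the strongest split between lots among abundant enzymes (SCD), and the feedback loop itself (INSIG1 and SREBF2). Each run is the 250 bases before the RefSeq gene start on GRCh38.p14, printed 5′ to 3′ along the gene. MSMO1 is at chr4:165327419-165327668 on the plus strand, PMVK at chr1:154936720-154936969 on the minus strand, SCD at chr10:100346983-100347232, INSIG1 at chr7:155297628-155297877 and SREBF2 at chr22:41832855-41833104, these 3 on the plus strand. Capitals mark CCAAT, the box bound by NF-Y, and CACNCCAC, the core of the sterol regulatory element bound by SREBP, each searched on both strands.
MSMO1 promoter: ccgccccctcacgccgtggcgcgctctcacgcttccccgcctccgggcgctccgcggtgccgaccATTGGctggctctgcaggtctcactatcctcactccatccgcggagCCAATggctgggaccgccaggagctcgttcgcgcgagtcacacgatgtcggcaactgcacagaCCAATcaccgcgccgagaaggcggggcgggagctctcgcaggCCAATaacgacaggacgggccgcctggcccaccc
PMVK promoter: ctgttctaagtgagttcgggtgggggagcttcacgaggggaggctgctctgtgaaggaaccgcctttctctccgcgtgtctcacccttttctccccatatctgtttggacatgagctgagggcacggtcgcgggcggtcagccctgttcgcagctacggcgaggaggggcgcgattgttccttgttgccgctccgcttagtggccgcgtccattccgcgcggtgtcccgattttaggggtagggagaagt
SCD promoter: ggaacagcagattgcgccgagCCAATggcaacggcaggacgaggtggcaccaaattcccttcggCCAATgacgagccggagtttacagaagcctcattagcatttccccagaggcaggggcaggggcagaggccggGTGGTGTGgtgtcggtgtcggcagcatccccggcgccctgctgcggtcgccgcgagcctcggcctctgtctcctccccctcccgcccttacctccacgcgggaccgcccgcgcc
INSIG1 promoter: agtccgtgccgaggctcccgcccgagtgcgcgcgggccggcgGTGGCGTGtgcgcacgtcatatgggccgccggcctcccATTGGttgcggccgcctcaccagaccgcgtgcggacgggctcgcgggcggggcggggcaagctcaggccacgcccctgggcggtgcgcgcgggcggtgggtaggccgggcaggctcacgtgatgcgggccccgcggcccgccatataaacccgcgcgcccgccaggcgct
SREBF2 promoter: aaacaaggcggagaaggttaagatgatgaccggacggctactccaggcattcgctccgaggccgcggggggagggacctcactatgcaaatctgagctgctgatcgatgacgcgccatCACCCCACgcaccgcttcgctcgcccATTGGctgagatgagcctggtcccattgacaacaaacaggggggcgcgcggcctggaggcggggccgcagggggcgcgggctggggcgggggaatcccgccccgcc
The MSMO1 window held 4 CCAAT matches and no CACNCCAC match. SCD held 2 CCAAT matches and 1 CACNCCAC match, and INSIG1 and SREBF2 held 1 of each. In SREBF2 the CACNCCAC match began 132 bases before the start and the CCAAT match 106 bases before it. The PMVK window held neither motif.

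Of the 32 members, 28 had a promoter in the RefSeq table. ACAT2, FASN, FDFT1 and SQLE had no entry. CCAAT was found in 20 of the 28 members, counting a gene once over all its starts, against 37.0% of all genes in the table. CACNCCAC was found in 6 of 28 (ACACA, IDI1, INSIG1, SC5D, SCD and SREBF2), against 5.89% of all genes. The GC box GGGCGG, searched on both strands, was found in 26 of 28, against 46.2% of all genes. The background for all 3 motifs was the 27305 genes of the promoter table, with no selection for expression or gene class. It is therefore not matched to the members, and whether the higher shares are particular to this pathway was not tested. The 6 genes with CACNCCAC had log2 ratios of PMA over untreated from −1.30 (SCD) to −0.30 (SC5D) in lot 1. In lot 2 the ratio was −0.34 for INSIG1 and above 0 for the others, and none of the 6 passed the test. Among all 30 tested members, 20 were lower with PMA in lot 1 and 24 were higher in lot 2. The direction was therefore not particular to the 6. These matches are a description of the letters in each window.

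The mevalonate steps turn acetyl-CoA into farnesyl diphosphate. None of the 7 genes passed the edgeR test, with 1 lower and 0 higher both at an unadjusted p under 0.05 and with DESeq2, and their median log2 fold change was −0.23. HMGCS1, the HMG-CoA synthase, was at 74.6 and 346 CPM with PMA in lots 1 and 2, against 68.1 and 130 CPM without it (1.09 ± 0.79, adjusted p = 0.455). The PMA library of lot 2 stood above the other 3, which lay within 2-fold of each other. FDPS, the farnesyl diphosphate synthase, was at 166 and 621 CPM with PMA and at 352 and 572 CPM without it. ACAT2, the cytosolic thiolase that joins acetyl-CoA units, was at 99.1 and 264 CPM with PMA and at 157 and 237 CPM without it. In both genes the PMA libraries were the lowest and the highest of the 4, so the groups overlapped.

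PMVK, the phosphomevalonate kinase, was the mevalonate gene whose groups did not overlap. It was at 18.4 and 14.8 CPM with PMA, against 32.5 and 70.2 CPM without it. Both PMA libraries were below both untreated libraries, but the fold change did not pass the test (−1.63 ± 0.51, edgeR adjusted p = 0.119). With DESeq2 the adjusted p was 0.0214, and over all alternatives it was 0.0214 to 0.544. MVK, the mevalonate kinase just before it, was at 13.2 and 37.7 CPM with PMA and at 25.1 and 60.8 CPM without it (−0.75 ± 0.70). The PMA library was lower within each lot, but the lots differed by more than the groups. MVD, the decarboxylase, had the same order of lots, with 51.1 and 171 CPM with PMA and 43.2 and 129 CPM without it. IDI1, the isopentenyl diphosphate isomerase, was at 73.6 and 183 CPM with PMA and at 152 and 149 CPM without it. Its untreated libraries were alike, and the PMA libraries lay on either side.

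Counts for some of these genes can be shared with neighbours or copies, since the sources used here do not state whether counting used strand. ACAT2 overlaps TCP1 on the other strand, which was at 126 to 305 CPM, and MVK overlaps MMAB, which was at 11.9 to 104 CPM. The 8 FDPS pseudogenes in the table were at 1.51 CPM or below in every library.

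The squalene steps held the only member that passed the edgeR test. SQLE (ENSG00000104549.12), which adds oxygen to squalene and is a known control point of the pathway, was at 827 and 1064 CPM with PMA, against 177 and 126 CPM without it. Both PMA libraries were several times above both untreated libraries. SQLE rose by 2.64 ± 0.35 on the log2 scale, or 6.25-fold (edgeR adjusted p = 0.0281), with a log2 ratio of 2.22 in lot 1 and 3.08 in lot 2. Blocking on lot gave an adjusted p of 0.0421. Without the PMA library of lot 2 it was 0.0704, with a log2 fold change of 2.46.

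The enzymes before and after SQLE were lower with PMA in each lot. FDFT1, the squalene synthase that makes the substrate of SQLE, was at 109 and 354 CPM with PMA, against 519 and 474 CPM without it (−1.10 ± 0.60, adjusted p = 0.320). LSS, which closes the product of SQLE into lanosterol, was at 67.2 and 80.3 CPM with PMA, against 111 and 131 CPM without it (−0.72 ± 0.31, adjusted p = 0.229). In both genes the PMA libraries were below the untreated libraries with no overlap, yet neither passed the test. Per kilobase of the longest GENCODE transcript, SQLE had the second highest mean level of the 32 genes with PMA, at 319 ± 56.6 CPM per kb (SD, n = 2), and the 12th without it, at 51.1 ± 12.3 CPM per kb.

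**Figure D4:**
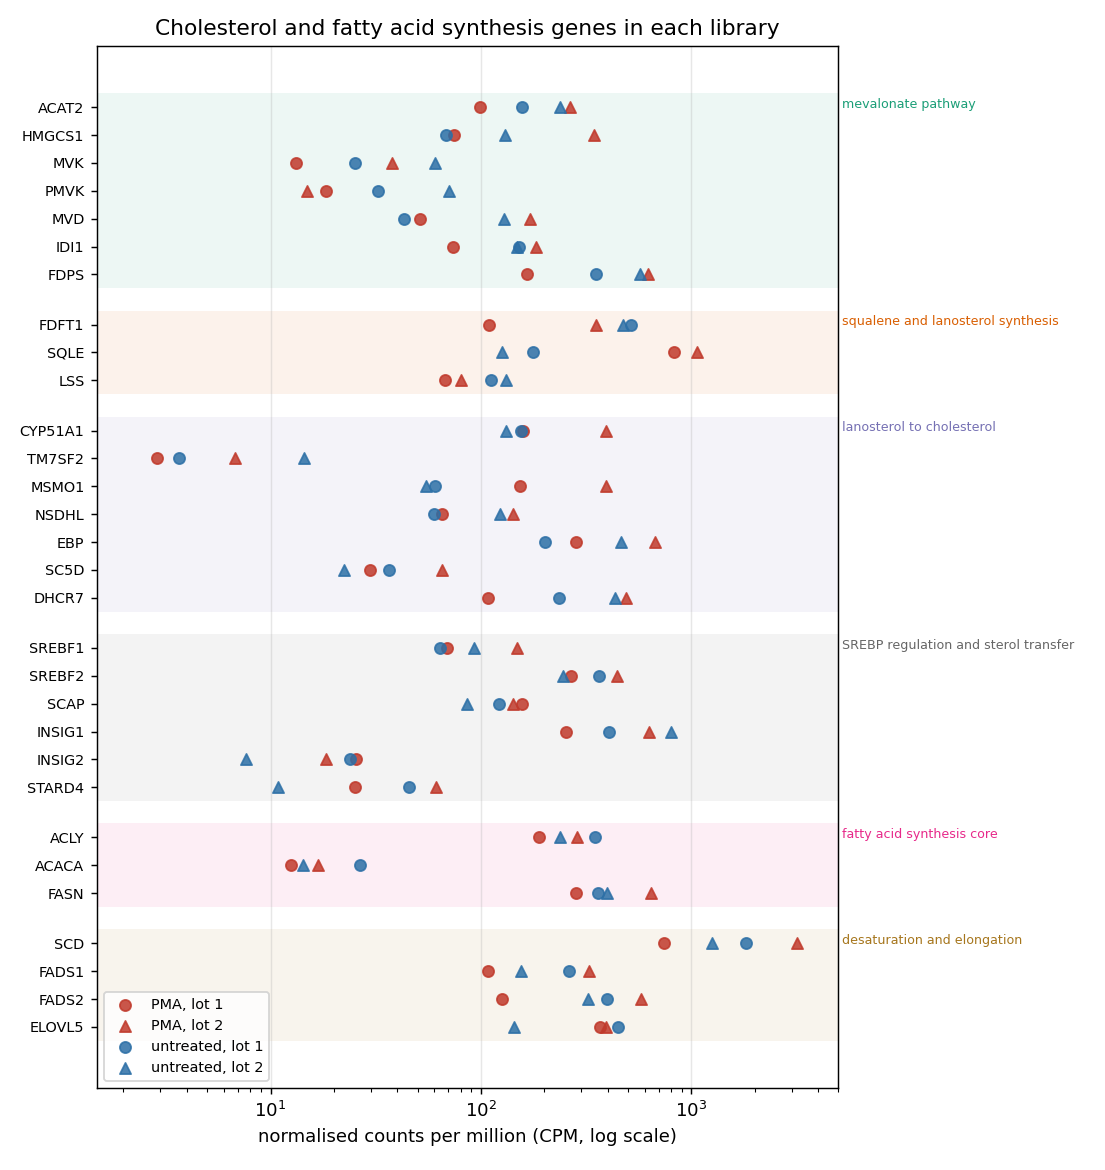
Normalised CPM (x axis, log scale) of each of the 30 tested members in each library, with red for PMA, blue for untreated cells, circles for lot 1 and triangles for lot 2. The red points lie apart from the blue ones on the right for SQLE, MSMO1, CYP51A1 and SCAP and on the left for PMVK, FDFT1 and LSS, and points of both colours overlap in 23 rows.

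Lanosterol becomes cholesterol through demethylation, reduction and isomerisation. None of the 7 tested genes of these steps passed the edgeR test, with 1 higher and 0 lower both at an unadjusted p under 0.05 and with DESeq2, and their median log2 fold change was 0.53. MSMO1 (ENSG00000052802.13), the methylsterol monooxygenase that starts removal of the C4 methyl groups, was at 153 and 395 CPM with PMA, against 60.4 and 54.6 CPM without it. The untreated libraries were alike and both PMA libraries were above them. The fold change was 2.25 ± 0.53 and missed the threshold (edgeR adjusted p = 0.0719, with an unadjusted p of 0.00816). It passed with DESeq2 (adjusted p = 0.000433) and with a filter of 5 CPM in 2 libraries (0.0452), and the range over the alternatives was 0.000433 to 0.400. In the authors' deposited table MSMO1 and SQLE were the only members with a q-value under 0.05, at 0.0415 and 0.00140, and the next lowest among the members was 0.776. The authors' deposited table calls 1347 of its 60662 entries (2.22%). Of these entries 33746 were at 0 in all 4 libraries. This share therefore cannot be set beside shares over the 16451 tested genes.

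CYP51A1, the lanosterol demethylase, which acts before MSMO1, was at 159 and 393 CPM with PMA, against 156 and 131 CPM without it (0.95 ± 0.50, adjusted p = 0.310). The PMA library of lot 1 was hardly above the untreated libraries, and that of lot 2 was well above them. EBP, the sterol isomerase, was at 283 and 672 CPM with PMA and at 201 and 462 CPM without it, higher with PMA in each lot by log2 ratios of 0.49 and 0.54. The groups overlapped because lot 2 was higher than lot 1 in both. NSDHL, which follows MSMO1, was at 65.2 and 143 CPM with PMA and at 59.7 and 123 CPM without it, again with the lots further apart than the groups.

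DHCR7, the reductase of the last step, was at 108 and 489 CPM with PMA and at 234 and 432 CPM without it (−0.16 ± 0.76). SC5D, the desaturase before it, was at 29.8 and 65.6 CPM with PMA and at 36.6 and 22.3 CPM without it (0.70 ± 0.54). For both the PMA library was the lower within lot 1 and the higher within lot 2. TM7SF2, a sterol reductase whose task LBR can also perform, had the lowest level of the tested sterol enzymes, at 2.88 and 6.74 CPM with PMA and 3.68 and 14.5 CPM without it. Its exons overlap those of VPS51 on the same strand, at 37.0 to 77.5 CPM, so its value is uncertain. HSD17B7, the ketoreductase of the pathway, was listed at 0 in every library together with its near-identical copies HSD17B7P1 and HSD17B7P2, and a listed 0 can be a failed estimate. The pseudogene CYP51A1P2 reached 10.1 CPM at most.

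Of the 6 genes that regulate SREBP or carry sterol, 3 (SREBF1, SCAP and INSIG2) were higher with PMA in both lots, INSIG1 was lower in both, and SREBF2 and STARD4 were lower in lot 1 and higher in lot 2. None of the 6 passed the edgeR test, and 0 did so at an unadjusted p under 0.05 or with DESeq2. The log2 fold changes ran from −0.44 (INSIG1) to 0.61 (STARD4). SREBF2, whose protein drives mainly the cholesterol genes, was at 268 and 445 CPM with PMA and at 366 and 246 CPM without it (0.22 ± 0.40, adjusted p = 0.780). SREBF1, whose protein drives mainly the fatty acid genes, was at 69.3 and 149 CPM with PMA and at 63.8 and 92.8 CPM without it (0.48 ± 0.48, adjusted p = 0.592). For both the PMA library of lot 2 was the highest of the 4. SREBF1 exons overlap those of RAI1 on the other strand, so reads can be shared. RAI1 was at 51.0 and 74.3 CPM with PMA and at 36.3 and 32.2 CPM without it. SCAP, the escort of SREBP, was at 158 and 142 CPM with PMA, against 122 and 85.4 CPM without it (0.53 ± 0.33, adjusted p = 0.386). It was the member of this group whose PMA libraries were both above both untreated libraries.

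INSIG1, itself an SREBP target, was at 255 and 630 CPM with PMA and at 405 and 798 CPM without it (−0.44 ± 0.57, adjusted p = 0.685). Lot 2 was higher than lot 1 in both groups, and the PMA library was the lower within each lot. INSIG2, the second retention protein, was at 25.4 and 18.3 CPM with PMA and at 23.8 and 7.69 CPM without it. Its low value was the untreated library of lot 2. Per kilobase, INSIG1 was far above INSIG2 in each group, at 147 ± 88.0 against 6.85 ± 1.57 CPM per kb with PMA and 200 ± 92.3 against 4.94 ± 3.57 CPM per kb without it (SD, n = 2 each). STARD4, a cytosolic sterol carrier and SREBP target, had the widest split between lots of all members, with 25.2 and 61.1 CPM with PMA and 45.7 and 10.9 CPM without it. Its log2 ratio was −0.86 in lot 1 and 2.49 in lot 2, and its antisense neighbour STARD4-AS1 was at 0.834 to 7.04 CPM.

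Fatty acid synthesis showed the split between lots in every gene. All 7 tested enzymes were lower with PMA in lot 1 and higher with PMA in lot 2, against 14.5% of the tested genes with counts in all 4 libraries. None passed the edgeR test, and 0 did so at an unadjusted p under 0.05 or with DESeq2. Their summed level with ELOVL6 at 0 was 1827 and 5426 CPM with PMA, against 3662 and 2531 CPM without it. The median log2 ratio was −1.09 in lot 1 and 0.82 in lot 2.

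ACLY, which makes cytosolic acetyl-CoA from citrate, was at 189 and 285 CPM with PMA and at 347 and 239 CPM without it (−0.31 ± 0.37, adjusted p = 0.664). ACACA, the acetyl-CoA carboxylase that makes malonyl-CoA, was at 12.5 and 16.8 CPM with PMA and at 26.5 and 14.2 CPM without it (−0.48 ± 0.50, adjusted p = 0.605). FASN, the fatty acid synthase, was at 283 and 645 CPM with PMA and at 360 and 395 CPM without it (0.30 ± 0.46, adjusted p = 0.740). In FASN the untreated libraries were close and the PMA libraries lay on either side, while in ACLY and ACACA the untreated library of lot 1 was the highest.

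SCD, the stearoyl-CoA desaturase that makes monounsaturated fatty acids, had the highest mean level per kilobase of all members in both groups, at 366 ± 322 CPM per kb with PMA and 287 ± 74.5 CPM per kb without it (SD, n = 2 each). By library SCD was the highest in the PMA library of lot 2 and the untreated library of lot 1, but was below SQLE and EBP in the PMA library of lot 1 and below FDPS, INSIG1 and EBP in the untreated library of lot 2. SCD was at 740 and 3183 CPM with PMA and at 1824 and 1259 CPM without it (0.35 ± 0.71, adjusted p = 0.804). The PMA libraries were the lowest and the highest of the 4, and they differed by 4.30-fold. FADS2 and FADS1, the desaturases of polyunsaturated fatty acids, had the same order. FADS2 was at 126 and 574 CPM with PMA and at 397 and 324 CPM without it (−0.04 ± 0.72). FADS1 was at 108 and 328 CPM with PMA and at 262 and 155 CPM without it (0.06 ± 0.61). These genes lie next to each other with overlapping exons on opposite strands, so reads can be assigned to either. FADS2 exons also overlap those of FEN1 on the same strand, at 7.72 to 108 CPM. ELOVL5, an elongase of polyunsaturated fatty acids, was at 369 and 395 CPM with PMA and at 446 and 144 CPM without it (0.37 ± 0.57, adjusted p = 0.738). Its PMA libraries were alike, and its lowest value was the untreated library of lot 2. Its log2 fold change was 1.34 without the untreated library of lot 1 and −0.23 without that of lot 2.

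Genes around the pathway were read from lists that do not overlap the 32 members. Over all tested genes, 6.30% passed the edgeR test in either direction, 27.0% had an unadjusted p under 0.05 and 23.2% passed with DESeq2. These shares are the background for each list below. Of 13 tested genes of SREBP processing and turnover, 0 rose and 1 fell, and the counts were the same with DESeq2 and at an unadjusted p under 0.05. This was ERLIN1, an endoplasmic reticulum protein that binds cholesterol and takes part in degradation of membrane proteins there. ERLIN1 was at 78.5 and 66.6 CPM with PMA, against 605 and 368 CPM without it, and fell by 2.74 on the log2 scale with a standard error of 0.39 (edgeR adjusted p = 0.0309). Its adjusted p was 0.0702 without the PMA library of lot 1 and 0.115 without that of lot 2. Its partner ERLIN2 was at 60.0 and 41.2 CPM with PMA and at 63.6 and 34.5 CPM without it. The SREBP-cleaving proteases MBTPS1 and MBTPS2 had fold changes of 0.11 ± 0.35 and 0.78 ± 0.84, and neither passed.

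Of 12 tested accessory genes of sterol synthesis, 1 rose and 0 fell. There were 2 higher and 2 lower both at an unadjusted p under 0.05 and with DESeq2, against 27.0% and 23.2% of all tested genes. POR, the reductase that passes electrons to SQLE and CYP51A1, was at 238 and 219 CPM with PMA, against 65.3 and 81.5 CPM without it. POR rose by 1.64 ± 0.31 at the edge of the threshold (edgeR adjusted p = 0.0499). The adjusted p was 0.0504 without a filter, 0.0538 with RLE factors, 0.0664 with upper quartile factors and 0.0660 when blocking on lot. It was 0.315 without the PMA library of lot 1 and 0.267 without that of lot 2. None of 14 isoprenoid genes after farnesyl diphosphate passed the edgeR test, with 3 higher and 2 lower at an unadjusted p under 0.05 and 1 higher and 1 lower with DESeq2. The genes with the smallest p there were COQ2, which makes the ubiquinone precursor (6.47 and 6.66 CPM with PMA, 15.3 and 33.4 CPM without it), and NUS1, of dolichol synthesis (60.2 and 50.2 CPM with PMA, 29.8 and 22.9 CPM without it).

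Of 9 tested genes of acetyl-CoA, NADPH and fatty acid supply, none passed with edgeR. Both at an unadjusted p under 0.05 and with DESeq2, 3 were higher and 1 was lower, against 27.0% and 23.2% of all tested genes. ACACB, the mitochondrial acetyl-CoA carboxylase that curbs fatty acid oxidation, was at 4.11 and 3.83 CPM with PMA, against 46.9 and 13.3 CPM without it (−2.93 ± 0.73, adjusted p = 0.0779, and 0.000544 with DESeq2). Both PMA libraries were below both untreated libraries. Of 15 other elongation, desaturation and fatty acid activation genes, 0 rose and 1 fell, with 2 higher and 1 lower both at an unadjusted p under 0.05 and with DESeq2. The elongase ELOVL3 was listed at 0 in both PMA libraries, against 2.34 and 4.73 CPM without it. If these listed 0 values are true counts and not failed estimates, ELOVL3 was at least 45.0-fold lower against a floor of 3 counts per library (edgeR adjusted p = 0.0460, and 0.0771 when blocking on lot). The bound was at least 29.8-fold lower without the untreated library of lot 2. Its adjusted p was 0.0523 without the PMA library of lot 1, 0.0713 without that of lot 2 and 0.0844 without the untreated library of lot 2.

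Of 6 tested glycerolipid genes none passed with edgeR. Both at an unadjusted p under 0.05 and with DESeq2, 2 were higher and 0 lower, against 27.0% and 23.2% of all tested genes. LPIN2, a phosphatidate phosphatase, was at 156 and 115 CPM with PMA, against 53.5 and 28.5 CPM without it (adjusted p = 0.0825). DGAT1, which makes triglyceride, was at 80.9 and 102 CPM with PMA, against 24.3 and 40.5 CPM without it (adjusted p = 0.0919). Of 13 tested liver X receptor genes and other lipogenic factors, 1 rose and 0 fell, with 3 higher and 1 lower at an unadjusted p under 0.05 and 3 higher and 0 lower with DESeq2. This was ABCA1, the cholesterol exporter switched on by liver X receptors when sterols accumulate, at 95.4 and 15.7 CPM in the PMA libraries of lots 1 and 2 and at 0 in both untreated libraries. A listed 0 can be a failed estimate. Taken as true counts, the 0 values put ABCA1 at least 951-fold higher with PMA against the same floor (edgeR adjusted p = 0.0385). The bound was at least 269-fold higher without the PMA library of lot 1 and at least 1632-fold higher without that of lot 2. Among PMA libraries ABCA1 was higher in lot 1, with the lot 2 value at 0.165 times that of lot 1. The other liver X receptor targets on the list differed less between lots, at 1.45 times for ABCG1 and 1.15 times for MYLIP. ABCG1 had only 16 and 33 counts in the PMA libraries of lots 1 and 2. ABCG1, a further sterol exporter, was at 0.491 and 0.713 CPM with PMA and at 0.0632 and 0 CPM without it, and MYLIP, which marks the LDL receptor for degradation, was at 21.8 and 25.1 CPM with PMA and at 27.9 and 12.3 CPM without it. The receptor genes NR1H2 and NR1H3 had fold changes of 1.08 ± 0.32 and 0.82 ± 0.81 and did not pass.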

How the data were processed

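Gene expression was measured by RNA sequencing of poly(A) RNA from 4 libraries of U937 cells. Per the labels' protocols, total RNA was column-purified, enriched for poly(A) RNA with beads and made into libraries with an Ion Total RNA-Seq kit. Per the submitters' processing notes, HISAT2 2.1.0 and StringTie 2.1.1 were used, with no roles given. The sources used here do not name the build, the annotation or the counting program. The authors deposited estimated counts per gene, which were whole numbers, so rounding changed none. The authors' other deposited file gives a signal for each gene, the count times 1 factor per library, which was not used here. It also holds the authors' log2 ratio, log2 mean level, p-value and q-value per gene and a rank score, of which the q-values are quoted. Groups came from the sample titles.

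Counts were fitted with edgeR 4.0.16 in R 4.3.3 (TMM factors, filterByExpr by group, quasi-likelihood test, Benjamini-Hochberg adjustment, threshold 0.05), on all 4 libraries and without a block. Of 60662 entries, 33746 were at 0 throughout and 16451 were tested. Standard errors were taken as the log2 fold change divided by the root of F. Log2 ratios within a lot are of the normalised CPM of 2 libraries. Depth was 35739833 to 54915928 counts. A floor of 3 counts stands for 0.0474 to 0.0920 CPM and covers counting error only. The titles give each library a lot number, which pairs them across groups, and same-lot deviations from the group means correlated at 0.154 across tested genes.

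Transcript lengths and exon overlaps came from GENCODE release 29 and promoters from RefSeq GRCh38.p14, and neither may match the authors' annotation. The tests were tested on simulated counts. Alternatives were RLE and upper quartile factors, no filter, a 5 CPM filter (in 2 libraries), the lot as a block, DESeq2 1.42.0, summing of entries with 1 symbol, and leaving out each library. The members, gene lists and tests were chosen with earlier results of these data known. Library values were to be given for called members and, in each step, the 3 most abundant uncalled ones. Of each other list the called genes, or otherwise the 2 with the smallest p, were named, and 1 gene that this rule picked is not reported here. Values of the other members, and of ERLIN2, MBTPS1, MBTPS2, NR1H2, NR1H3, ABCG1, MYLIP, ACSS2, ACSL4, FADS3 and SOAT1, were chosen after the data were seen.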

Additional observations from a re-analysis of the deposited data

How the results depend on the processing

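SQLE kept its direction under all 11 alternatives (2.42 to 2.85 without 1 library) and its call in all but the one without the PMA library of lot 2. Members called higher numbered 2 with DESeq2 and with the 5 CPM filter and 0 to 2 without 1 library, and members called lower numbered 1 with DESeq2 and 0 to 1 without 1 library, against 1 and 0. Genes called higher numbered 2127 with DESeq2 and 424 to 1830 without 1 library, and genes called lower 1684 with DESeq2, 721 with the 5 CPM filter and 79 to 1085 without 1 library, against 705 and 332. Among the fits without 1 library, the lowest counts came without the PMA library of lot 2 (424 higher, 79 lower, 0 members higher) and the highest without the untreated library of lot 1 (1830 higher, 1085 lower, with SQLE and ELOVL5 higher and PMVK lower among the members). Without the PMA library of lot 1, 467 genes were higher. Leaving out a library leaves 1 sample in a group, assumed to vary like the other group.

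With the lot as a replicate block, 591 genes were called higher, 244 lower and 1 member higher. The block ended the calls of POR and ELOVL3 and changed no other call of a named gene beyond those printed beside their values. The sign of 20 of 30 members turned without some library, over these log2 ranges: ACAT2 −0.98 to 0.36, DHCR7 −1.61 to 0.49, EBP −0.21 to 1.24, ELOVL5 −0.23 to 1.34, FADS1 −0.94 to 0.59, FADS2 −1.51 to 0.61, FASN −0.40 to 0.71, FDPS −1.46 to 0.36, HMGCS1 −0.39 to 1.74, IDI1 −1.01 to 0.22, INSIG1 −1.22 to 0.13, INSIG2 −0.12 to 1.44, MVD −0.73 to 1.36, MVK −1.7 to 0.019, NSDHL −0.47 to 0.80, SCD −1.04 to 0.98, SREBF1 −0.16 to 0.86, SREBF2 −0.18 to 0.48, STARD4 −0.15 to 1.92, TM7SF2 −1.65 to 0.38. Signs turned for 6 and 10 members without the PMA libraries of lots 1 and 2, and for 4 and 11 without the untreated libraries of lots 1 and 2. The sign turned for FADS1 with the block (−0.10) and with upper quartile factors (−0.081), and for NSDHL with upper quartile factors (−0.0036). These factors moved the median of all genes to −0.17. The cause was not tested. The biological coefficient of variation was 0.626 over the tested genes. All members tested lay well above the floor of 3 counts.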

Other observations

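Ratios of 2 genes within a library do not depend on how libraries are scaled. Pairs of enzymes were chosen after their values had been seen, and the share of separate groups over pairs of other genes was not computed. Further pairs were computed without their values being given here. Of these, FDFT1 to FDPS and NSDHL to MSMO1 had separate groups. FASN to ACLY, INSIG2 to INSIG1 and SREBF1 to SREBF2 had overlapping groups. The count of SQLE was 7.57 and 3.01 times that of FDFT1 in the PMA libraries of lots 1 and 2, against 0.341 and 0.265 times in the untreated libraries. The count of SQLE was 12.3 and 13.3 times that of LSS with PMA, against 1.59 and 0.958 times without it. MSMO1 stood at 0.962 and 1.00 times the count of CYP51A1 with PMA, against 0.388 and 0.417 times without it, so this ratio was steady between lots while both genes differed between the PMA libraries. HMGCS1 stood at 0.753 and 1.31 times the count of ACAT2 with PMA, against 0.432 and 0.550 times without it. FDPS stood at 2.25 and 3.39 times the count of IDI1 with PMA, and at 2.32 and 3.84 times without it, with overlapping groups. SCD stood at 2.62 and 4.93 times the count of FASN with PMA, and at 5.06 and 3.18 times without it, which also overlapped.

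Some lipid genes outside the 32 leaned towards PMA in both lots without passing the edgeR test. ACSL4, which activates polyunsaturated fatty acids for phospholipids, was at 980 and 623 CPM with PMA, against 141 and 40.2 CPM without it (3.15 ± 0.70, edgeR adjusted p = 0.0642, and 0.0391 when blocking on lot). FADS3, a relative of FADS1 and FADS2, was at 80.1 and 128 CPM with PMA, against 9.58 and 20.7 CPM without it (2.78 ± 0.55, edgeR adjusted p = 0.0524, and 0.0378 when blocking on lot). SOAT1, which esterifies cholesterol for storage, was at 97.1 and 59.0 CPM with PMA, against 26.7 and 9.10 CPM without it (2.12 ± 0.64, edgeR adjusted p = 0.112). ACSS2, which makes acetyl-CoA from acetate and is a known SREBP target, was at 129 and 352 CPM with PMA, against 87.8 and 72.8 CPM without it (1.58 ± 0.55, edgeR adjusted p = 0.147). As in most of the 32 genes, the PMA library of lot 2 was the highest for ACSS2.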
